A study of Homo sapiens with 8 samples.

Results

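Unpaired m6A peaks are peaks that were called in 1 of the 2 groups of an m6A-seq experiment, on an RNA that carried called peaks in both. They were defined by the deposited peak lists themselves: the RefSeq isoform had to occur in both lists, and the peak interval had to share no nucleotide with any peak of that isoform in the other list. A peak of this kind in FTO-knockdown cells is called gained, and one in control cells lost. There were 1661 gained peaks among the 18551 peaks of the shFTO list and 2027 lost peaks among the 19072 peaks of the shNC list, 3688 of 37623 peaks in all. Because the peak calls chose the members, their number, their scores and their distances are given as descriptions, and the words gained and lost name a list and not a measured change.

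m6A is a methyl mark on adenosine inside mRNA. Writers of the METTL3 and METTL14 complex place it, mostly within a short sequence whose core is GGAC, and it lies most densely around stop codons and in long exons. Readers such as the YTHDF proteins bind it and affect decay and translation, and the erasers FTO and ALKBH5 remove it.

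The cells were Mel624, an established human melanoma line, carrying a lentiviral short hairpin RNA against FTO (shFTO) or a control hairpin (shNC) and grown without further treatment. Each group had 2 replicates, each with an immunoprecipitated (IP) and an input library, 8 libraries in all. The value of a peak is a log2 enrichment score of IP over input, scaled by the median of all windows on that RNA, so a score compares places within an RNA. Each list merges both replicates of its group and gives 1 score for each. A place without a peak has no score, so the size of the difference at a gained or lost peak is unknown. The lists hold no read counts, the depth of each library is unknown, and less m6A, less RNA and a missed call at a place cannot be told apart. Whether the replicates were separate cultures is not stated, so the spread between them may be technical. Of 10 melanocyte lineage markers, 9 had a peak in the shFTO list and 8 in the shNC list, while none of 4 leukocyte and none of 3 keratinocyte markers had a peak in either. Of 4 fibroblast markers, 1 had a peak in both lists. The level of FTO mRNA was not analysed here.

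The 2 lists had 8693 RNAs in common, with 17576 peaks in shFTO and 18321 peaks in shNC. Gained peaks were 9.45% of these shFTO peaks and lost peaks 11.1% of these shNC peaks. A gained peak lay on 1393 of the 8693 RNAs (16.0%) and a lost peak on 1666 of them (19.2%). Both kinds occurred on 283 RNAs, a gained peak alone on 1110, a lost peak alone on 1383 and neither on 5917. Most of these RNAs had 1 unpaired peak of a kind: 1179 RNAs carried 1 gained peak, 173 carried 2 and 41 carried 3 or more, and 1380, 226 and 60 RNAs carried as many lost peaks. Nearly all of them also kept a paired peak, since only 57 RNAs in both lists had none. The share of unpaired peaks was low where an RNA had a single peak and higher where it had several. It was 1.43% of the shFTO peaks and 1.42% of the shNC peaks on RNAs with 1 peak in that list, and 14.6% and 15.1% on RNAs with 6 or more. The rule itself bears on the first of these, since an RNA whose single peak is missing from the other list mostly drops out of the RNAs in both lists.

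Sequence is shown for a selection of members, around the motif the lists mark. That motif is GGACU, written GGACT below as in the reference genome, and 484 gained peaks (29.1%) and 515 lost peaks (25.4%) held at least 1. The windows below are 29 nt of the sense strand around a listed GGACT, from GENCODE version 44 transcripts on hg38, with GGACT in capitals. They were picked from RNAs described below, each in a peak with a score of at least 3 in both replicates, and are not the highest of all peaks with a motif. The first BNC2 window holds a second ggact, in lower case, that is not among the sites listed for the peak.
SETBP1, gained CDS peak, chr18:44953096-44953124, plus strand: cagtgagcctgtGGACTcatgcacgaaaa
SETBP1, gained CDS peak, chr18:45063293-45063321, plus strand: ccagttcgatgaGGACTccagagaccaaa
SYNE1, gained CDS peak, chr6:152330191-152330219, minus strand: aggaagtctccaGGACTcagggattgtac
SYNE1, gained CDS peak, chr6:152329978-152330006, minus strand: gagtcgctccctGGACTggctgaggagag
FOXO3, gained CDS peak, chr6:108664573-108664601, plus strand: gcaaaccctctcGGACTctctctcaggct
KDM5A, gained 5′ UTR peak, chr12:389159-389187, minus strand: gcctctgtcaggGGACTtgaacgggctta
SCAF8, lost CDS peak, chr6:154832166-154832194, plus strand: tcaaatagttctGGACTtttgggagtgct
SCAF8, lost CDS peak, chr6:154832208-154832236, plus strand: cctaacaattctGGACTtgtaggagtaca
SCAF8, lost CDS peak, chr6:154832250-154832278, plus strand: ccaaatactcctGGACTtctgggaacaca
SCAF8, lost CDS peak, chr6:154832352-154832380, plus strand: gacattcgtccgGGACTaataccacaggc
BNC2, lost CDS peak, chr9:16552541-16552569, minus strand: ctggactctgcgGGACTatgtccgaggat
BNC2, lost CDS peak, chr9:16437330-16437358, minus strand: actcagatataaGGACTttcattgagagc
TNRC6B, lost CDS peak, chr22:40265056-40265084, plus strand: gagaacaacaatGGACTaggaaattggag
NFIC, lost stop codon peak, chr19:3463039-3463067, plus strand: gccaaggccgcaGGACTggagggccaggc
GCNT2, lost 5′ UTR peak, chr6:10556255-10556283, plus strand: gagacagcagctGGACTctcgggatgaaa

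The 4 SCAF8 sites lay in the last of 20 exons, and 3 of them were spaced 42 nt apart. The 2 SYNE1 sites lay in exon 78 of 146 and were 213 nt apart. The 2 BNC2 sites fell in exons 5 and 6 of 7. The SETBP1 sites were in exons 4 and 6 of 6, the TNRC6B site in exon 5 of 23, and the KDM5A and GCNT2 sites in exon 1, within the 5′ UTR of the listed isoform. The FOXO3 peak scored 3.18 and 3.16 and lay 5 nt from a shNC peak. The second SETBP1 peak scored 3.45 and 3.48 and lay 216 nt from a shNC peak. The other listed peaks and their scores are described with their RNAs below.

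The gained peak with the highest lower replicate score was on YIF1B, which encodes a protein of transport between the endoplasmic reticulum and the Golgi (chr19:38303558-38321887, GRCh38). It covered nt 2251 to 2510 in the 3′ UTR and scored 5.60 and 6.94 in shFTO. The nearest shNC peak lay 1882 nt away, at the start codon, where the paired peak scored 1.35 and 2.30 in shFTO and 3.17 and 2.23 in shNC. BAG5, a co-chaperone of HSP70 (chr14:103556551-103562657), had a gained CDS peak of 4.94 and 5.27, and the nearest shNC peak was 404 nt away. MAGI3, a scaffold protein with PDZ domains (chr1:113390515-113685923), had a gained CDS peak of 4.71 and 4.77 at nt 1634 to 1895, with 3143 nt to the nearest shNC peak, and a second gained peak of 2.74 and 2.16 in the 3′ UTR. Its 1 paired peak, further down the 3′ UTR, scored 4.70 and 5.33 in shFTO and 3.90 and 3.80 in shNC, a difference of 1.17 ± 0.32 (SE, adjusted p = 0.657 by limma with Benjamini-Hochberg adjustment).

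The other 7 of the 10 highest gained peaks directly abutted another shFTO peak, and that neighbour was the partner of the nearest shNC peak. These were PLOD1, a lysyl hydroxylase of collagen, NRP1, a co-receptor for VEGF and semaphorins, SOCS5, a suppressor of cytokine signalling, MMP17, a membrane-anchored metalloproteinase, GRB10, an adaptor of the insulin receptor, KIDINS220, a membrane scaffold, and USP34, a deubiquitinase. Their nearest shNC peaks were 0 to 16 nt away. The NRP1 peak, for example, covered nt 3361 to 3493 with scores of 5.07 and 5.27 in shFTO, and the shNC peak at the stop codon ended at nt 3359 with scores of 4.83 and 4.98. The MMP17 peak ended at nt 1780 with 4.84 and 5.21, and the shNC peak began at nt 1783 with 5.62 and 4.63. At such places the enriched stretch was longer or split differently in 1 list, and both lists held a high score next to it.

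Among lost peaks the highest lower replicate score was on USP32, a deubiquitinase (chr17:60177327-60422416). The peak overlapped the stop codon at nt 4822 to 5106 and scored 6.19 and 6.15 in shNC. The nearest shFTO peak ended 212 nt upstream in the CDS, and that pair scored 6.92 and 6.37 in shFTO against 6.63 and 6.46 in shNC. SCAF8, which binds the tail of RNA polymerase II (chr6:154733378-154834244), had a lost CDS peak at nt 3014 to 3322 with scores of 5.29 and 4.94 and all 4 of the GGACU sites shown above. The nearest shFTO peak was 687 nt away, a CDS peak paired in both lists with 6.13 and 5.40 in shFTO and 6.01 and 6.03 in shNC. CHD9, a chromatin remodeller, had a lost CDS peak of 5.44 and 5.18, 91 nt from a shFTO peak, and ATRN, which affects coat pigmentation in mice, one of 4.91 and 5.38 in the 3′ UTR, 113 nt from one. ZNF451, a SUMO ligase, had one of 4.65 and 5.02, which stood 769 nt from the nearest shFTO peak. In the remaining 5, USP10, CAB39, CLDN12, CUL1 and KIRREL (now KIRREL1), the lost peak was again the abutting neighbour of a paired peak, 0 to 31 nt from the shFTO peak. CLDN12, which encodes a claudin, shows the form: its lost peak of 4.88 and 5.83 began at nt 629, directly after a start codon peak that ended at nt 628 in both lists with 6.84 and 6.67 in shFTO and 6.06 and 6.92 in shNC.

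As a class, unpaired peaks had low scores. The mean of both replicates had a median of 1.74 for gained peaks (quartiles 1.32 and 2.33) and 2.64 for paired peaks of the same list (1.89 and 3.60). It was 1.79 for lost peaks (1.34 and 2.38) and 2.69 for paired shNC peaks (1.93 and 3.63). The level was similar in both replicates, with medians of 1.76 and 1.72 for gained and 1.81 and 1.74 for lost peaks. The median SD between replicates was 0.215 for gained and 0.208 for lost peaks, against 0.224 and 0.235 for paired peaks. A score below 1 in at least 1 replicate was found in 13.1% of gained and 12.1% of lost peaks, against 3.31% and 2.70% of paired peaks. The peaks of each list were split into 4 equal groups by score. Of the lowest shFTO group 20.1% were gained, and of the highest 1.87%. The same shares of lost peaks were 22.9% and 2.42%. Unpaired peaks with a mean score of 4 or more numbered 43 gained and 53 lost. Unpaired peaks were also narrower, with a median width of 227 nt (gained) and 219 nt (lost) against 259 and 254 nt (paired). Scores of the replicates, across peaks, correlated with r = 0.813 for gained and 0.828 for lost peaks, and 0.909 and 0.900 for paired peaks, over 1661, 2027, 15915 and 16294 peaks, which are not independent and share their libraries.

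**Figure D1:**
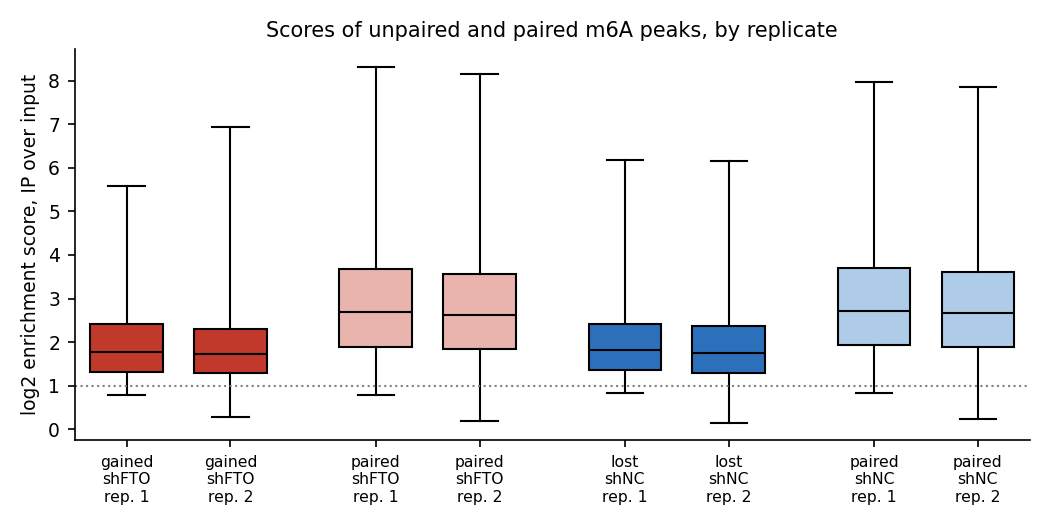
Log2 enrichment scores of gained and lost peaks and of the paired peaks of the same lists, by replicate. Boxes show the quartiles and the median, whiskers the lowest and highest peak, and the dotted line a score of 1. The medians of the unpaired peaks lie between 1.72 and 1.81 in the 4 replicates, below the lower quartiles of the paired peaks in each replicate.

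The distance to the other list was short for a sizeable minority. The median gap to the nearest peak of the other list was 455 nt for gained peaks (quartiles 132 and 1103) and 528 nt for lost peaks (115.5 and 1277.5). It was under 100 nt for 369 gained (22.2%) and 478 lost peaks (23.6%), and 1000 nt or more for 28.2% and 33.1%. The nearest peak of the other list was itself a paired peak for 91.5% of gained and 93.1% of lost peaks. A peak of the own list was directly adjacent for 24.6% of gained and 26.9% of lost peaks, close to the 22.8% of paired shFTO and 25.9% of paired shNC peaks. That neighbour was the partner of the nearest peak of the other list for 324 gained (19.5%) and 428 lost peaks (21.1%). Members nearer than 100 nt had a higher median score, 2.07 for gained and 2.23 for lost peaks, than members further away, 1.65 and 1.67. Of the 29 gained peaks with 4 or more in both replicates 19 abutted a peak of their list, and of the 39 such lost peaks also 19. Members just inside the rule, 0 to 10 nt from the other list, numbered 166 gained and 215 lost peaks, with a median score of 2.05 and 2.38 and a median width of 132.5 and 131 nt. Paired peaks just outside it, with 1 to 10 nt in common, numbered 103 in shFTO and 170 in shNC, with a median score of 2.23 and 2.41 and a median width of 119 and 115 nt.

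**Figure D2:**
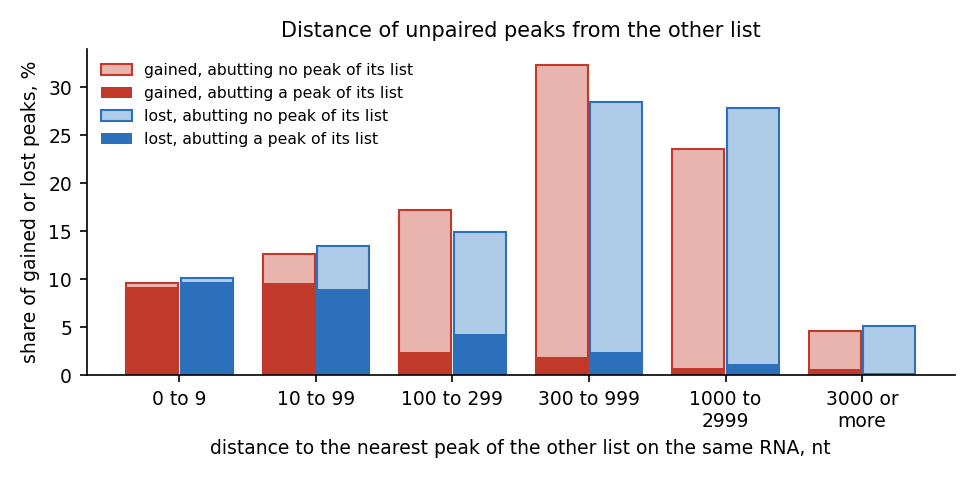
Share of gained and lost peaks by distance to the nearest peak of the other list on the same RNA. The full colour marks peaks that directly abut another peak of their own list. They make up 153 of the 159 gained and 198 of the 206 lost peaks within 9 nt.

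The peaks differed from paired peaks in where they lay on the RNA. The rule used the interval of a peak but not its region label. A start or stop codon label means that the interval overlaps the codon, so it can depend on width. Unpaired peaks were narrower, as given above. Peaks that overlap the stop codon made up 8.49% of gained peaks against 21.4% of paired shFTO peaks, a difference of -12.9 points (95% Newcombe interval -14.3 to -11.4), and 9.72% of lost peaks against 20.5% of paired shNC peaks, -10.8 points (-12.2 to -9.29). The 3′ UTR held 27.3% of gained and 28.2% of lost peaks, 6.59 points (4.41 to 8.87) and 6.95 points (4.93 to 9.05) above the paired peaks. The 5′ UTR held 10.7% and 9.37%, higher by 4.50 points (3.05 to 6.12) and 3.19 points (1.93 to 4.58). The CDS held 37.7% and 37.1%, higher by 6.20 points (3.79 to 8.66) and 4.82 points (2.62 to 7.07). Start codon peaks made up 11.9% and 12.9%, with differences of -5.49 points (-7.08 to -3.75) and -4.06 points (-5.56 to -2.42). For lost peaks the CDS and start codon intervals included 0 among members at least 100 nt from the other list, at 1.05 points for the CDS and -1.75 points for the start codon, and the start codon difference of lost peaks was -0.14 points (-2.07 to 1.996) among peaks with a mean score of at least 2. These intervals cover counting error only, and peaks of 1 RNA are not independent. In the other direction, 3.97% of the shFTO stop codon peaks were gained and 5.57% of the shNC stop codon peaks lost, the lowest shares of the 6 regions, whereas 15.2% and 15.9% of 5′ UTR peaks were unpaired. The score moved with the region: paired stop codon peaks had the highest median score, 3.05 in shFTO and 3.03 in shNC. The part of score and of width in these differences was not tested.

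Gained and lost peaks resembled each other in region. The difference of gained minus lost was 1.34 points in the 5′ UTR (-0.60 to 3.32), -1.07 at the start codon (-3.19 to 1.09), 0.60 in the CDS (-2.53 to 3.74), -1.23 at the stop codon (-3.08 to 0.65) and -0.89 in the 3′ UTR (-3.78 to 2.03). Noncoding RNAs held 3.85% of gained and 2.61% of lost peaks, a difference of 1.24 points (0.10 to 2.44), whose interval included 0 among peaks that scored at least 1 in both replicates (1.07 points).

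**Figure D3:**
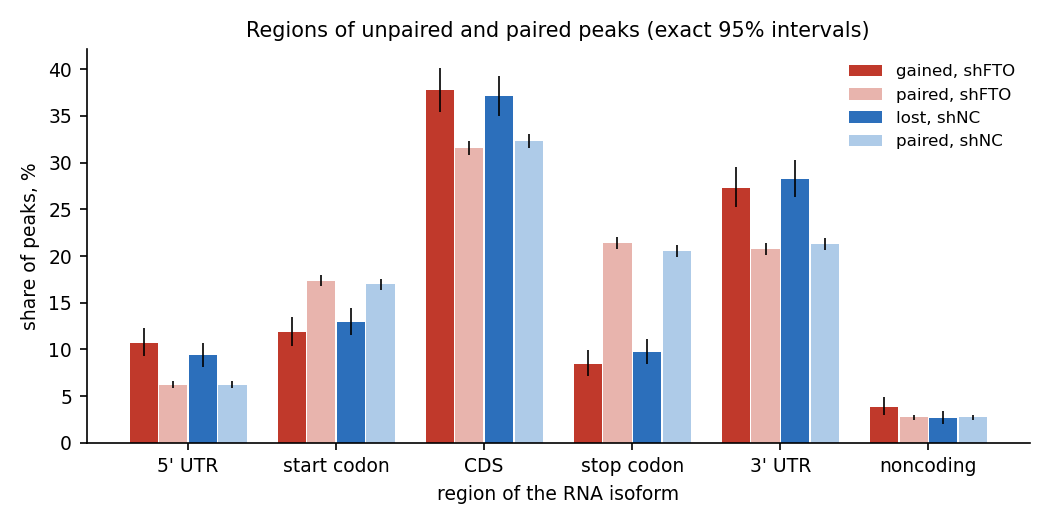
Share of gained, paired shFTO, lost and paired shNC peaks in each region of the RNA isoform, with exact 95% intervals. Stop codon peaks are 8.49% of gained and 9.72% of lost peaks, against 21.4% and 20.5% of paired peaks, while CDS, 3′ UTR and 5′ UTR shares are higher among unpaired peaks.

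By region, the highest members were these. In the 5′ UTR they were gained peaks on HPS3 (4.39 and 4.61), a subunit of the BLOC-2 complex of melanosome biogenesis, and RABGEF1 (5.07 and 4.31), a RAB5 exchange factor, and lost peaks on CAB39 (5.01 and 6.14), a partner of the kinase LKB1, and GCNT2 (5.62 and 4.53), the I-branching enzyme. HPS3 also had the highest gained start codon peak (4.49 and 4.21), which abutted the first and also directly adjoined a shNC peak in the CDS of 6.34 and 6.20. The highest lost start codon peaks were on BTBD3 (3.71 and 4.87) and DLC1 (3.67 and 4.06). At the stop codon they were gained peaks on MAML2, a Notch coactivator described below, and QTRT2 (3.98 and 3.51), a subunit of the queuosine enzyme, and lost peaks on USP32 and SNX18, a sorting nexin (4.19 and 4.07). NFIC, a transcription factor of the nuclear factor I family, had a lost stop codon peak of 4.14 and 4.06 with the GGACU shown above. In the 3′ UTR, ABCC1, a drug efflux pump, had a gained peak of 4.56 and 4.91, 121 nt from a shNC peak. ATP11A, a lipid flippase, had a lost 3′ UTR peak of 5.47 and 4.56, and FAM134A (now RETREG2), of the endoplasmic reticulum, had one of 4.56 and 4.68, 1530 nt from the nearest shFTO peak. Among noncoding RNAs HCG11 had a gained peak (3.58 and 3.39) and MIAT a lost peak (2.84 and 3.01). The highest noncoding peaks of both kinds were on PRKXP1, a pseudogene of the kinase gene PRKX. The authors kept 1 alignment per read, so reads of PRKXP1 and PRKX may have been split between them and its peaks are uncertain.

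GGACU was rarer in unpaired peaks than in paired peaks. It occurred in 29.1% of gained peaks against 39.2% of paired shFTO peaks, a difference of -10.0 points (-12.3 to -7.67), and in 25.4% of lost peaks against 37.7% of paired shNC peaks, -12.3 points (-14.3 to -10.3). The number per 1000 nt was 1.56 in gained and 1.44 in lost peaks against 1.85 and 1.84 in paired peaks. These densities have no interval and are not adjusted for score. Within the 4 score groups the share was lower in unpaired peaks each time. In the lowest group it was 27.2% of gained against 31.6% of paired peaks and 25.4% of lost against 31.4% of paired peaks. In the highest group it was 24.4% of 82 gained against 46.5% of paired peaks and 29.7% of 111 lost against 44.7% of paired peaks. The interval included 0 in the third score group of gained peaks (35.9% against 41.5%, -11.5 to 0.67 points). Among peaks of at most 150 nt the shares were close, with differences of -1.85 points (-5.55 to 2.25) for gained and -0.52 points (-3.82 to 3.08) for lost peaks. Compared within joint bins of score and width, the difference was -2.45 points (-4.81 to -0.0826) for gained and -4.07 points (-6.17 to -1.97) for lost peaks.

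More gained than lost peaks held GGACU, by 3.73 points (0.85 to 6.63). The paired peaks of the 2 lists also differed in this direction, by 1.42 points (0.36 to 2.48), and among peaks that abut no peak of their own list the difference of gained minus lost was 2.91 points, with an interval that included 0.

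**Figure D4:**
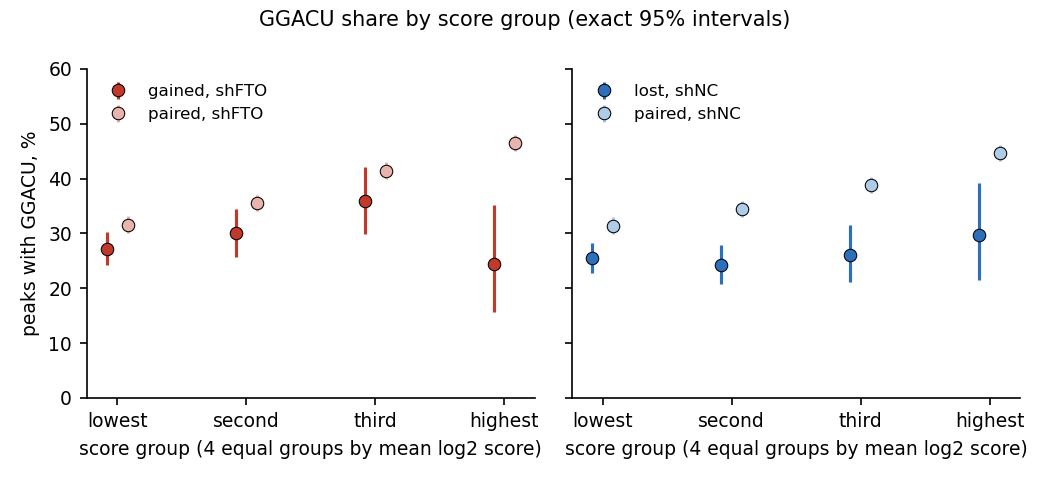
Share of peaks with at least 1 GGACU by score group, which are 4 equal groups by mean log2 score, for gained and paired shFTO peaks (left) and lost and paired shNC peaks (right), with exact 95% intervals. The share of paired peaks is higher with each score group, up to 46.5% in shFTO and 44.7% in shNC, and the unpaired peaks lie below it in all 4 score groups of both lists.

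Exon structure, examined after the other results had been seen, could be read for 2457 isoforms whose motif positions placed them on a GENCODE transcript. Placement needed at least 2 listed GGACU on the isoform, and 7436 isoforms had fewer. The placed isoforms carried 663 gained and 847 lost peaks, of which 308 and 345 held GGACU. This set thus favours RNAs with the motif. Among CDS peaks of placed RNAs with more than 1 exon, the centre was within 100 nt of an exon junction in 91 of 282 gained peaks (32.3%) against 18.0% of 2202 paired peaks, a difference of 14.3 points (8.84 to 20.2). It was so in 146 of 356 lost peaks (41.0%) against 18.5% of 2289 paired peaks, 22.5 points (17.3 to 27.9). The difference was as large among peaks that abut no peak of their list, 14.05 points (7.30 to 21.4) for gained and 24.2 points (17.5 to 31.1) for lost peaks. The difference was smaller within either of 2 score groups than over all these CDS peaks. With a mean score under 2 it was 5.04 points for gained (-3.22 to 13.5) and 19.2 points for lost peaks (11.1 to 27.2). With 2 or more it was 6.75 points (0.49 to 15.0) and 11.4 points (5.24 to 18.6). A junction was this near in 36.6% of paired shFTO peaks with a score under 2 and in 11.7% with 2 or more. For paired shNC peaks these shares were 36.2% and 12.9%. The difference moved with exon length. In exons of 1000 nt or more the difference was 5.48 points for gained (1.11 to 11.5) and 5.88 points for lost peaks (1.41 to 11.9), and in shorter exons it was 24.3 points (14.9 to 33.2) and 31.8 points (24.0 to 38.8). The median exon that held a CDS peak was 1422.5 nt for gained and 937.5 nt for lost peaks, against 1461 and 1458.5 nt for paired peaks. Over all regions 49.4% of gained and 47.9% of lost peaks were in the last exon, against 57.9% and 57.8% of paired peaks, -8.53 points (-12.6 to -4.45) and -9.87 points (-13.5 to -6.24). Among CDS peaks alone the last exon difference was -4.42 points (-9.49 to 1.25) for gained and -11.4 points (-15.5 to -6.69) for lost peaks. Within the 3′ UTR the median distance of the peak centre from the stop codon was 1272 nt for gained and 1083 nt for lost peaks, against 878.5 and 832 nt for paired peaks. The lists use the longest isoform of each gene, and the part of alternative exons was not tested.

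Some RNAs collected several members. SYNE1, which encodes the nuclear envelope protein nesprin-1 (chr6:152121687-152637362), had 5 gained CDS peaks between nt 9306 and 15304. The highest scored 4.03 and 3.14 and held the 2 GGACU shown above, and all 5 lay 11622 to 17416 nt from the only shNC peak, at the stop codon. That pair scored 3.83 and 3.79 in shFTO and 3.66 and 4.49 in shNC. SETBP1, a nuclear protein that binds SET, had 4 gained peaks, the highest with 4.82 and 4.33 in the CDS and 4.47 and 3.81 at the start codon, and a single shNC peak at the stop codon. FOXO3, a forkhead transcription factor downstream of AKT, had 4 gained peaks, 3 of which abutted paired peaks, the highest with 4.11 and 4.45 in the 3′ UTR, 22 nt from the shNC peak. ONECUT2, a homeodomain factor, had 4 gained peaks, and TTC3, a ubiquitin ligase of AKT, also 4.

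Among lost peaks ZNF451 and ZNF407, a zinc finger protein, had 5 each. On ZNF451 (chr6:57090188-57170305) 4 of them followed each other in the 3′ UTR between nt 2432 and 3468, with mean scores of 4.84, 3.65, 2.59 and 2.41, while its only shFTO peak, in the CDS, scored 5.56 and 5.70 against 5.92 and 5.79 in shNC. IGF1R, the receptor of insulin-like growth factors (chr15:98648539-98964530), had 4 lost 3′ UTR peaks. The first 3 adjoined each other at nt 5696 to 6154 with 4.81 and 4.30, 3.60 and 3.38, and 2.75 and 2.90, and the fourth scored 1.51 and 1.40. The nearest paired peak upstream of the first 3 scored 4.19 and 4.29 in shFTO against 4.43 and 4.09 in shNC. The next one downstream scored 1.30 and 1.79 in shFTO against 1.27 and 2.54 in shNC, and the fourth lost peak lay beyond the last paired peak. GAB2, a docking protein of receptor tyrosine kinases, also had 4 lost peaks.

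On 283 RNAs both lists held a peak that the other lacked. MAML2 had 1 peak in each list and shared none: a gained stop codon peak of 3.56 and 3.81 and a lost CDS peak of 4.88 and 3.68, 2460 nt apart. BNC2, a zinc finger protein of skin pigmentation (chr9:16409503-16870670), had a gained CDS peak of 3.25 and 2.89 that abutted a paired peak, and lost CDS peaks of 4.27 and 3.58 and of 2.22 and 2.55. Its paired CDS peak at nt 2080 scored 4.23 and 4.06 in shFTO and 5.51 and 5.38 in shNC, a difference of -1.31 ± 0.28 (SE, adjusted p = 0.542 by limma). AAK1, a kinase of clathrin adaptors with a long 3′ UTR, had a gained peak of 3.37 and 3.27 and a lost one of 4.12 and 3.89 in that 3′ UTR. On TNRC6A, a scaffold of microRNA silencing, a gained peak of 3.55 and 2.98 lay 26 nt from the nearest shNC peak. That was the lost peak of 3.28 and 2.87. This lost peak directly abutted a paired shNC peak, whose shFTO partner was 5 nt away. ENC1, PLXNB2, RPS6KA5, SBNO1 and SH3PXD2A completed the 10 highest RNAs of this kind, beside PRKXP1.

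**Figure D5:**
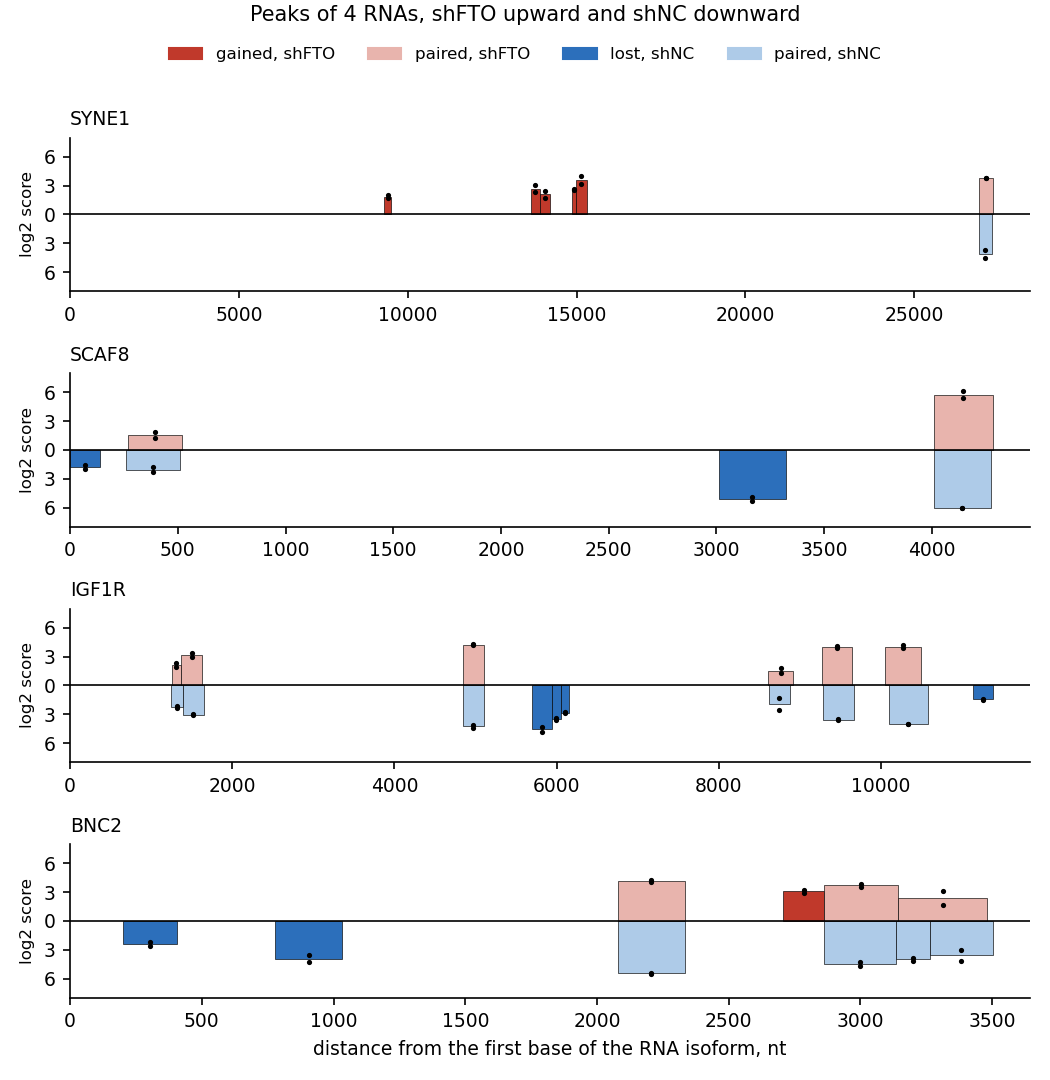
Peaks along the isoforms of SYNE1, SCAF8, IGF1R and BNC2, with shFTO peaks drawn upward and shNC peaks downward. Bars give the mean log2 score of 2 replicates, points the replicates, and bar width the peak. Gained peaks (full red) and lost peaks (full blue) face no peak of the other list, while paired peaks (pale) do.

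The 15 gene lists show which pathways held members, and their shares are read against 16.0% of RNAs with a gained and 19.2% with a lost peak. Among the m6A writers, erasers and readers 4 of 24 RNAs had a gained and 7 of 24 a lost peak. CBLL1, a subunit of the writer complex, had a gained 5′ UTR peak of 1.75 and 2.31 and a lost CDS peak of 2.96 and 3.70. That lost CBLL1 peak directly abutted a shNC peak and its partner, the nearest shFTO peak. METTL16, a second methyltransferase, had a lost start codon peak of 2.96 and 2.09, and IGF2BP1, a reader, a lost stop codon peak of 1.21 and 1.28. ALKBH5, the other eraser, had a lost CDS peak of 1.19 and 0.92, near the threshold of the calls. In mRNA decay 4 of 21 RNAs had a gained and 7 of 21 a lost peak. Among them were TNRC6B with a lost CDS peak of 4.43 and 3.94 and PAN3, a deadenylase subunit, with a lost 3′ UTR peak of 4.02 and 2.99. Counted by peaks, 7 of 61 shNC peaks of the m6A list were lost (11.5%) and 7 of 54 of the decay list (13.0%). These shares are near the 11.1% of all such peaks.

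Chromatin regulators of lysine methylation had the highest count of gained members. Of 28 RNAs 12 had a gained peak (42.9%) and 6 a lost peak (21.4%). They carried many peaks, however, and 13 of their 124 shFTO peaks were gained (10.5%), near the 9.45% of all such peaks. KDM5A, a histone H3 lysine demethylase, had a gained 5′ UTR peak of 3.41 and 3.40, SETD1A, a methyltransferase, a gained CDS peak of 3.09 and 2.84, and KDM3B a lost CDS peak of 2.78 and 2.93. KMT2A and KMT2C, methyltransferases with very long mRNAs, had both kinds.

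In PI3K, AKT and mTOR signalling 5 of 22 RNAs had a gained and 5 a lost peak, with RPTOR, the mTORC1 subunit raptor, at 4.01 and 3.99 in a gained 3′ UTR peak, TSC1 at 3.02 and 3.38 in another, and FOXO1 at 2.97 and 3.30 in a lost stop codon peak. The RPTOR, TSC1 and FOXO1 peaks each abutted a peak of their own list. That neighbour was the partner of the nearest peak of the other list, 10, 0 and 13 nt away. Counted by peaks, 10 of 71 shFTO peaks of this PI3K list were gained (14.1%) and 6 of 69 shNC peaks lost (8.70%). In RAS and MAPK signalling 1 of 22 had a gained (4.55%) and 5 a lost peak (22.7%). By peaks, 1 of 46 shFTO peaks was gained (2.17%) and 5 of 49 shNC peaks were lost (10.2%). The lost peaks on SPRED1 (3.59 and 4.87) and SPRED2 (3.83 and 2.92), both inhibitors of RAS signalling, were the highest. Both again abutted a shNC peak that was the partner of the nearest shFTO peak, 34 and 102 nt away. Receptor tyrosine kinases and ephrins had 4 and 3 of 14, with MET at 3.51 and 3.17 in a gained CDS peak and ROR1 at 2.97 and 3.80 in a lost CDS peak. The NF-kB pathway had 6 and 5 of 24, including TRAF6 with a gained 3′ UTR peak of 2.98 and 2.24 and TRAF3 with a lost CDS peak of 2.40 and 2.41. The TRAF3 peak abutted a shNC peak that was the partner of the nearest shFTO peak, 66 nt away. By peaks, 8 of 55 shFTO peaks of the NF-kB list were gained (14.5%) and 6 of 54 shNC peaks lost (11.1%). Autophagy had 6 and 4 of 24, led by ATG2B, a lipid transfer protein. Its gained stop codon peak of 3.34 and 3.76 lay 9 nt from a shNC peak.

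In interferon gamma signalling and antigen presentation 5 of 21 RNAs had a gained and 5 a lost peak. Counted by peaks, 5 of 32 shFTO peaks were gained (15.6%) and 7 of 35 shNC peaks lost (20%). Over all such peaks the shares were 9.45% and 11.1%, and the difference was not tested. IRF1, a transcription factor of interferon genes, had a gained 3′ UTR peak of 2.89 and 1.56 and lost peaks of 2.28 and 1.65 in the 5′ UTR and of 1.54 and 1.31 in the 3′ UTR, and STAT2 had lost peaks of 2.39 and 2.62 in the CDS and of 1.23 and 1.64 at the stop codon. The STAT2 peaks adjoined each other, and the CDS peak abutted a shNC peak that was the partner of the nearest shFTO peak, 7 nt away. Of 5 checkpoint ligand RNAs 2 had a gained peak, PVR with 2.99 and 2.12 and CD47, and 1 a lost peak. Melanocyte lineage and pigmentation genes had 3 of 20 RNAs with each kind. SLC45A2, a transporter of melanosomes, had a gained 3′ UTR peak of 2.02 and 2.66 and a lost stop codon peak of 2.38 and 1.53. The invasive state had 3 and 2 of 18, with a lost 5′ UTR peak on YAP1 of 2.38 and 2.73. Cell cycle and p53 genes had 1 and 2 of 16 RNAs (6.25% and 12.5%), and immediate early genes 2 and 1 of 20 (10% and 5%). Hypoxia and metabolic stress had 2 and 1 of 22 (9.09% and 4.55%). With counts this small, a shortage was not tested.

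Apart from these lists, 11 genes that the study names were looked up, FTO among them. Of the 11, 3 carried members, each with a mean score under 2. CD274, PDCD1, CTSV and NOP16 were not in both lists, so the rule could not make them members. For comparison, 5917 of all 8693 RNAs in both lists had no unpaired peak. FTO itself had a lost peak over the stop codon at nt 1459 to 1826 with 1.56 and 1.39 in shNC. Its paired peaks scored 2.15 and 2.42 in shFTO against 3.19 and 2.51 in shNC at the start codon, and 2.50 and 3.10 against 3.57 and 3.22 in the CDS, with adjusted p of 0.901 and 0.881 by limma. The hairpin acts on this mRNA, whose level was not analysed here. CD47 had a gained start codon peak of 1.64 and 0.998 and a lost CDS peak of 1.05 and 1.82, 90 nt apart, and no paired peak. ANGPTL2 had a gained 3′ UTR peak of 1.25 and 1.15 with 1 GGACU. The peaks of CXCR4, SOX10, FCMR and CDKN1A were all paired, CD274 had a peak in the shFTO list only, and PDCD1, CTSV and NOP16 had no peak in either list.

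Scores could be compared between groups only at paired peaks. There were 12117 pairs whose members overlapped each other and no further peak, and limma called 0 pairs (0%) at an adjusted p under 0.05. Before adjustment 279 pairs (2.30%) were higher and 446 (3.68%) lower in shFTO at p under 0.05. An exact permutation test cannot reach this threshold with 2 replicates a group and was not run, and on simulated pairs limma recovered only large changes. Leaving out single replicates gave 0 to 11 calls. On RNAs with gained peaks alone, 71 of 1648 pairs (4.31%) were higher and 56 (3.40%) lower in shFTO before adjustment, and the median difference was 0.03 on the log2 scale. On RNAs with lost peaks alone, 31 of 1922 pairs (1.61%) were higher and 113 (5.88%) lower, and the median difference was -0.09. It was -0.01 over the 413 pairs of RNAs with both kinds and -0.00295 over the 8134 pairs of RNAs with neither. A paired peak shares the libraries and the median window of its RNA with the unpaired peaks, so these values are a description and not separate evidence. ONECUT2 had a large difference at 1 place: its pair at nt 7829 scored 4.41 and 4.39 in shFTO against 2.42 and 2.58 in shNC, a difference of 1.90 ± 0.28 (SE, adjusted p = 0.286 by limma).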

How the data were processed

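m6A-seq was performed on mRNA of Mel624 cells with shFTO or shNC, 2 replicates each, with an IP and an input library per replicate. Per the labels and the study's methods, the authors trimmed reads with cutadapt, aligned them to hg38 with TopHat2 2.0.14, kept 1 alignment per read, scored sliding windows of IP against input by Fisher's exact test and merged enriched windows into peaks. The deposited values are log2 enrichment scores per replicate, in 1 peak list per group, with positions on the longest RefSeq isoform and the listed GGACU sites. Replicates were separate columns of 1 list, so peaks were not called per replicate.

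Peaks of both lists were set against each other on the same isoform with Python 3.11.15, pandas 2.3.3 and scipy 1.17.1. Shares have exact (Clopper-Pearson) and differences of shares Newcombe 95% intervals. The GGACU difference within joint bins of score and width is the exception. It was weighted by the number of unpaired peaks in each bin and has a normal 95% interval. Paired peaks that overlapped 1 peak each were tested on the log2 scale with limma 3.58.1 in R 4.3.3, shFTO against shNC without a block, with Benjamini-Hochberg adjustment. The test was tested on simulated data. Isoforms were placed on GENCODE version 44 by their listed motif positions, and gene positions and current symbols came from RefSeq. Library depth was not given in the peak lists. Named RNAs were those with the 10 highest peaks of each kind by the lower replicate score, the 5 highest in each region, the most unpaired peaks or both kinds, members of the 15 gene lists, and genes of the study. Some items that this rule named are not reported here. The members and the lists were chosen with earlier results of these data known. Alternatives changed the overlap, the score threshold, abutting peaks, the replicates, the scale and the centring. Replicate 1 minus replicate 2 correlated with r = -0.273 between the groups over 12117 pairs, which share their libraries. Replicates of the same number thus did not deviate in the same direction. Whether the numbers pair the samples is not stated in the labels.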

Additional observations from a re-analysis of the deposited data

How the results depend on the processing

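No result past its threshold changed sign. Of the results that answer a comparison, 98 repeats counted as unchanged and 15 did not. A difference counted as unchanged if it kept its side of the threshold, and its direction where the main interval excluded 0. A count had to stay within 1.5 times, and a median score within the median SD between replicates. With a mean log2 score of at least 2 in both lists, 933 gained and 1215 lost peaks were counted, the noncoding difference was 0.636 points (gained minus paired) and 0.746 points (gained minus lost), and the start codon difference of lost minus paired peaks was -0.14 points. With at least 100 nt to the other list, lost minus paired was -1.75 points at the start codon and 1.05 points in the CDS. The noncoding difference of gained minus lost was 1.07 points with a score of at least 1 in both replicates and 1.24 points without abutting peaks, and that of GGACU 2.91 points without abutting peaks, each with an interval that included 0. The 5′ UTR difference of gained minus lost was 2.41 points (0.03 to 4.83) without abutting peaks. The junction difference of gained peaks was 5.04 points among peaks with a score under 2, an alternative chosen after seeing the data. Limma called 0 pairs with the replicate number as a block and 13 with crossed numbers as a block, also chosen after seeing the data. It called 0 to 11 pairs with 1 replicate left out, 7 without shFTO replicate 1, 11 without shFTO replicate 2, 6 without shNC replicate 2 and 0 without shNC replicate 1, where the lone sample was assumed to vary like the other group. The median paired difference then ranged over 0.00772 to 0.0751 on RNAs with gained peaks alone and -0.155 to -0.0353 on RNAs with lost peaks alone, and changed sign on RNAs with both kinds (-0.0697 to 0.0373), on RNAs with neither (-0.0611 to 0.0584) and over all pairs (-0.0656 to 0.0462). Differences of gained minus lost whose interval included 0 also changed sign, with a score of at least 2 to -0.57 points in the 5′ UTR, 0.857 points at the stop codon and 0.23 points in the 3′ UTR, and without abutting peaks to -0.191 points in the CDS, as did the noncoding difference of lost minus paired peaks (0.0555 points with a score of at least 1 in both replicates). The causes were not tested. Without read counts, depth cannot be set against the calls, and a peak near the score threshold may be called in 1 list alone.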
